A study of Taeniopygia guttata with 8 samples.

Results

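H3K27ac in Area X was compared with H3K27ac in RA in zebra finches that had sung. All 8 libraries from singing birds entered, 4 of Area X and 4 of RA, out of 14 H3K27ac libraries in the table, and no region was selected beforehand. The table lists 35958 genomic regions, of which 35954 passed the filter on low counts. The birds were adult males kept alone in sound attenuation and sampled after a period of singing, which the sample labels give as 2 h. Libraries were read as singing from the word plus in their column names, and as silent from the word minus. No genotype or drug treatment is given for any group. The Area X and RA groups share the species, the sex and the behaviour, and they differ in the nucleus that was dissected. Per the labels' protocols, nuclei of 6 birds went into a pool, with 3 pools per behaviour, so a library is an average over birds and over all cell types of the dissected piece. Nuclei were cut by hand from thick sections in the protocol, but the source name speaks of laser capture. The table holds 4 singing libraries per nucleus, and the origin of the fourth is not given. The p-values measure the spread between these libraries, which may be technical in part. Libraries of the same or of the other nucleus may share pools of birds, whereas the main tests treat all 8 as independent.

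H3K27ac is the acetylation of lysine 27 on histone H3, a mark found at active promoters and active enhancers. Because enhancer use differs strongly between cell types, the mark separates tissues by the regulatory elements in use, and broad clusters of marked regions often surround genes tied to the identity of a cell type. Area X is a striatal nucleus of the basal ganglia loop for song learning, and most of its neurons are inhibitory medium spiny neurons. RA, the robust nucleus of the arcopallium, is a pallial motor nucleus whose glutamatergic projection neurons drive the brainstem centres for the vocal organ and breathing. The comparison therefore sets a striatal against a pallial tissue in birds with the same recent behaviour. In bulk tissue, a difference in the share of cells of a type and a difference in acetylation per cell cannot be told apart. No source used here names the genome build of the table. Regions therefore carry their deposited positions, with starts counted from 1, and no gene is assigned to them. For the same reason the dissected tissues could not be checked against marker genes.

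The 8 libraries differed in depth and in how clearly they separated. Reads in regions (M, 1e6 reads) came to 6.62, 6.42, 4.84 and 8.28 M in Area X libraries 1 to 4, and to 4.88, 1.08, 3.03 and 0.203 M in RA libraries 1 to 4. RA library 4 held 2.2% of all RA reads, listed 17% of regions at 0 and reached a median of 3 reads. A read in that library is worth 4.35 CPM (reads per 1e6 reads in regions, scaled with TMM factors), against 0.835 CPM in RA library 2 and at most 0.284 CPM in the other 6. On an axis with the mean Area X profile at 1 and the mean RA profile at 0, each library being left out of its own group's mean, Area X libraries 1 to 4 lay at 0.519, 0.83, 1.27 and 1.11. RA libraries 1 to 4 lay at 0.167, 0.309, 0.385 and 0.709. RA library 4 thus lay closer to Area X than Area X library 1 did, and the other 3 RA libraries lay below every Area X library. Spearman coefficients over regions were 0.796 to 0.964 within Area X and 0.666 to 0.788 within RA. Between the nuclei they were 0.5 to 0.827, so the ranges overlapped. RA library 4 had coefficients of 0.78 to 0.823 with the Area X libraries and of 0.666 to 0.721 with the other RA libraries. RA library 1 had 0.5 to 0.827 with the Area X libraries and 0.666 to 0.788 with the other RA libraries. RA library 2 had 0.686 to 0.788 and 0.721 to 0.786. No pair among the 8 libraries agreed within sampling noise (lowest chi-square per degree of freedom 1.5, between RA library 4 and Area X library 2), and all 8 were kept. The part that depth or dissection may have in these positions was not tested, so results are given with and without RA library 4 where they rest on it.

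**Figure D1:**
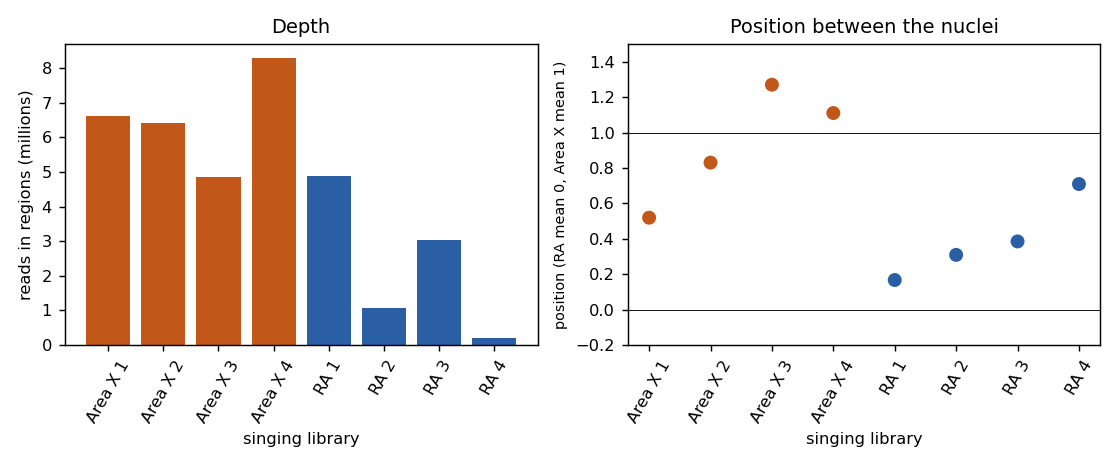
Left, reads in regions (1e6) for each singing library (bars from 0; Area X orange, RA blue). Right, the position of each library between the mean Area X profile (line at 1) and the mean RA profile (line at 0), 1 point per library, with no error bar. RA library 4 has 0.203 M reads and lies at 0.709, above Area X library 1 at 0.519.

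A total of 6635 of 35954 regions differed between the nuclei in singing birds (18.5%; edgeR quasi-likelihood test, Benjamini-Hochberg adjusted p below 0.05, which is what "called" means from here on). Acetylation was higher in Area X at 3728 regions (10.4%) and higher in RA at 2907 regions (8.09%). The median fitted fold among calls was 2.87 toward Area X and 2.6 toward RA, and the smallest called folds were 1.56 and 1.55. Large fitted folds lay mostly on the Area X side: 828 regions exceeded 4-fold toward Area X and 270 toward RA, and 151 exceeded 8-fold toward Area X against 7 toward RA. Of the 151, 5 reached the median CPM of all tested regions, and of the 7, 0 did. The RA libraries hold 9.19 M reads in regions and the Area X libraries 26.2 M, and the part of depth in this asymmetry was not tested. Per kilobase, regions called toward Area X had a median of 33.4 CPM in Area X and 12.8 CPM in RA. Those called toward RA had 8.48 CPM per kb in Area X and 21.6 CPM per kb in RA. All tested regions had 17.8 CPM per kb in Area X and 17.2 CPM per kb in RA. Calls toward RA thus lay below the overall median in Area X by more than they lay above it in RA.

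The calls lay close to the threshold. The smallest adjusted p was 0.0203, no region passed 0.01, and 14291 regions had an unadjusted p below 0.05. Leaving out Area X library 3, Area X library 4 or RA library 3 ended every call, with smallest adjusted p of 0.0592, 0.06 and 0.0588 and 10587, 11396 and 11785 regions at an unadjusted p below 0.05. Without Area X library 1 there were 7850 calls, without Area X library 2 2872, without RA library 1 1986, without RA library 2 2847 and without RA library 4 8780. The split turned without RA library 1 (428 toward Area X and 1558 toward RA) and without RA library 2 (981 and 1866). All 6635 called regions kept their direction in each of these 8 fits, and between 6143 and 6635 of them kept an unadjusted p below 0.05. Each fit reuses the remaining libraries that made the calls, so a kept direction is nearly given and is no independent support. Scaling bears on the split too. With libraries scaled to total reads the calls were 1555 toward Area X and 5579 toward RA. Then 21.8% pointed to Area X in place of 56.2%, and the median log2 value over every tested region was -0.3 in place of 0.03. With DESeq2 size factors in edgeR the share toward Area X was 49.6%.

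**Figure D2:**
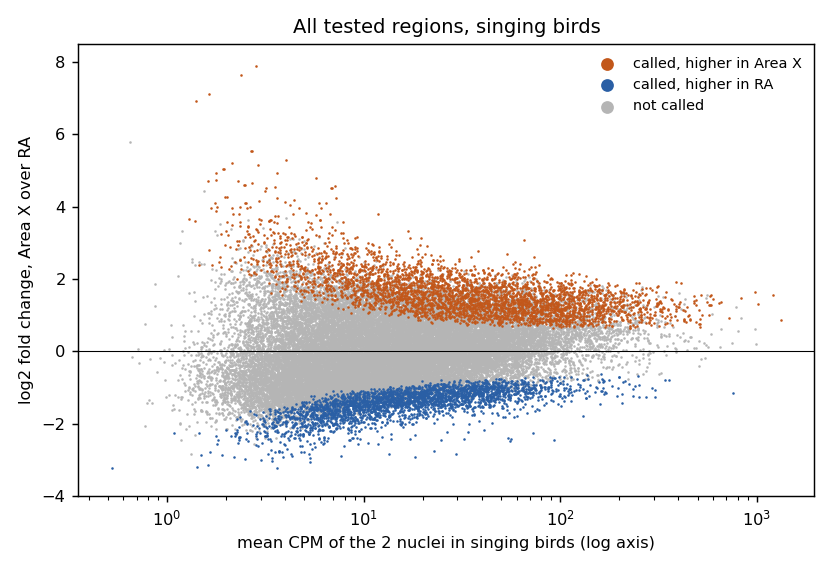
Each point is a tested region, with its mean CPM over both nuclei in singing birds on a log axis and its log2 fold change, Area X over RA, on the vertical axis. Orange points are the 3728 regions called higher in Area X, blue points the 2907 called higher in RA and grey points those not called; folds past 8 lie mostly at low CPM.

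The spread around the fold changes was wide. The common biological coefficient of variation was 0.392, and the median 95% interval reached 0.916 log2 units either side of the estimate. Between libraries of a nucleus, the median coefficient of variation of a region was 31.9% in Area X and 49.3% in RA. A fitted difference under 1.5-fold was found at 13991 regions (38.9%), while 5650 (15.7%) had an interval that lay within 2-fold either side of no change. The CPM of the 4 Area X libraries lay wholly above those of the 4 RA libraries at 3363 regions (9.35%), of which 2370 were called, and wholly below at 2573 regions (7.16%), of which 1645 were called.

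Libraries did not contribute evenly to these calls. At the regions called toward Area X, Area X libraries 1 to 4 had medians of 34.3, 40, 60.7 and 53.4 CPM and RA libraries 1 to 4 of 12.2, 17.5, 17.9 and 26.1 CPM. Area X library 1 was nearer to the RA mean than to the other Area X libraries at 41.6% of these regions, and RA library 4 was nearer to the Area X mean at 39.9%, whereas the other 6 were nearer to the other nucleus at 0.322% to 6.65%. At the regions called toward RA, Area X libraries had medians of 10, 9.16, 8.16 and 8.73 CPM and RA libraries of 23.3, 25, 26.9 and 13 CPM. RA library 4 was nearer to the Area X mean at 57% of those. A read in that library is worth 4.35 CPM, so its values at single regions rest on few reads. The part of counting error in its percentages was not tested.

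The largest differences toward Area X, under conditions on overlap and signal, were 12 regions on 9 sequences with fitted folds of 5.85 to 8.82. They have the largest folds among calls without overlap of libraries and with a mean of at least 13.8 CPM, the median. At most 1 region was taken per 100000 bp. That mean is over the libraries of both nuclei, so a region can pass through its Area X signal alone. RA means were as low as 3.26 CPM, at chr5:30511995-30513199. At chr3:39571507-39572858, a region of 1352 bp, the Area X libraries 1 to 4 had 11, 15.9, 53.9 and 35.3 CPM, against 0.353, 10.9, 1.42 and 8.69 CPM in RA libraries 1 to 4. Area X libraries 3 and 4 were high, RA libraries 1 and 3 were close to 0, and the groups stood apart by a narrow margin (11 against 10.9 CPM). The log2 fold change was 3.14 ± 0.91 (SE), an 8.82-fold difference (adjusted p = 0.0318 by edgeR). Folds of regions are fitted and are not ratios of mean CPM, which here were 29 CPM in Area X and 5.33 CPM in RA. The fold at this region was 23.2 without RA library 2, 32.7 without RA libraries 2 and 4, and without RA library 1 it was 4.72, with an adjusted p of 0.105 by edgeR.

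The third region, chr3:39461302-39462622 (1321 bp), carried the most signal of the 12. Its Area X libraries had 127, 114, 134 and 82.6 CPM, against 12.9, 11.7, 9.93 and 30.4 CPM in RA. Every Area X library was far above every RA library, and RA library 4 stood above the rest of its group. Means were 114.5 ± 22.8 CPM in Area X and 16.2 ± 9.54 CPM in RA (SD, n = 4 each), with a log2 fold change of 3.09 ± 0.57 (SE) and an adjusted p of 0.0206 by edgeR. The value of RA library 4 rests on 7 reads, with an exact 95% Poisson interval of 12.2 to 62.7 CPM that covers counting error only. Without that library the fold was 9.93.

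At chr4:8418829-8419933 (1105 bp) the Area X libraries had 9.7, 18.6, 64.2 and 45.3 CPM, against 2.82, 2.5, 5.11 and 8.69 CPM in RA. The RA values were low in all 4 libraries, and Area X varied widely between its own libraries. The fold was 8.79 (log2 3.14 ± 0.63 SE, adjusted p = 0.0206 by edgeR). At chr20:4621828-4623402 (1575 bp) the Area X libraries were more even, with 24.6, 35.2, 38.9 and 45.2 CPM, against 1.23, 1.67, 9.08 and 13 CPM in RA. The fold was 7.56 (adjusted p = 0.0206 by edgeR). The RA libraries fell into a low pair, 1 and 2, and a higher pair, 3 and 4, and both pairs lay under every Area X library. The fold was 4.69 without RA library 1, where the call was lost (adjusted p = 0.05 by edgeR), and 17.2 without RA library 3.

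Further members of the set differed between their RA libraries in other ways. At chr7:37271030-37272716 the Area X libraries had 27.5, 45.3, 107.5 and 76.4 CPM, against 4.94, 3.34, 13.9 and 26.1 CPM in RA, a 6.89-fold difference. At chr10:18593509-18594117, the shortest of the 12 at 609 bp, they had 10.4, 16.4, 37.6 and 34.2 CPM, against 4.41, 1.67, 2.84 and 8.69 CPM in RA, a 6.87-fold difference. At chr2:33750791-33752033 they had 44.3, 66.4, 147 and 103.5 CPM, against 7.05, 16.7, 13.6 and 30.4 CPM in RA, a 6.48-fold difference. At these 3 regions Area X library 1 was the lowest of its group and RA library 4 the highest of its own, without overlap.

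At chr5:30511995-30513199 (1205 bp) the Area X libraries had 17.6, 19, 38.9 and 32.9 CPM, against 2.29, 2.5, 8.23 and 0 CPM in RA, where RA library 4 had no read. The fold was 6.38, and 12.6 without RA library 3. At chr24:847534-850267 (2734 bp), the widest of the 12, they had 39, 39.2, 69.4 and 56.6 CPM, against 8.11, 9.18, 6.81 and 17.4 CPM in RA, and the fold was 5.85. Even the lowest Area X library was at more than 2 times the highest RA library there. The other 3 regions, chrUn:170542445-170543771 on unplaced sequence, chr3:87127911-87129193 and chr5:41977178-41978366, had folds of 6.43, 6.13 and 6.07. The first of these was at 4.23 without Area X library 3.

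Within Area X, libraries 3 and 4 were both above libraries 1 and 2 at 11 of the 12 regions, and RA library 4 was the highest RA library at 9 of 12. It had 0 to 7 reads over the 12 regions. With any 1 singing library left out the folds ranged from 4.05 to 23.2, all toward Area X. All 12 were called without RA library 4, with folds of 5.99 to 9.99, and 8 of 12 without RA libraries 2 and 4. Without RA library 1, 7 of the 12 were no longer called, among them chr7:37271030-37272716, chr5:30511995-30513199, chr3:87127911-87129193 and chr5:41977178-41978366, which were also lost without RA library 2.

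The matching 12 regions toward RA lay on 10 chromosomes, with folds of 3.96 to 7.53. The first was chr10:16304848-16306631 (1784 bp), with 3.58, 4.66, 5.17 and 4.93 CPM in Area X libraries 1 to 4, against 18, 42.6, 58.7 and 8.69 CPM in RA libraries 1 to 4. The Area X libraries agreed closely at 4.59 ± 0.7 CPM, while RA spread widely at 32 ± 22.8 CPM (SD, n = 4 each). The log2 fold change was -2.91 ± 0.54 (SE), 7.53-fold toward RA (adjusted p = 0.0206 by edgeR). Without RA library 4, its lowest RA value, the fold was 8.62.

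The second, chrZ:14136487-14137869 (1383 bp) on the sex chromosome that male birds carry as a pair, had the second-largest fold. Its libraries had 5.97, 9.48, 4.08 and 4.36 CPM in Area X, against 46.9, 40.1, 41.1 and 30.4 CPM in RA. The highest Area X library lay far below the lowest RA library. Means were 5.98 ± 2.48 CPM in Area X and 39.6 ± 6.83 CPM in RA (SD, n = 4 each), 6.75-fold toward RA (log2 -2.76 ± 0.41 SE), and its adjusted p of 0.0203 by edgeR was the smallest found, a value it shares with other regions.

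At chr1A:64189181-64189923 (743 bp) the Area X libraries had 5.82, 7.07, 1.91 and 2.96 CPM, against 23.1, 19.2, 33.5 and 17.4 CPM in RA, a 5.37-fold difference. At chr3:32632724-32634218 (1495 bp) they had 9.11, 16.9, 8.16 and 12.8 CPM, against 31.7, 58.4, 77.7 and 56.5 CPM in RA, a 4.73-fold difference. RA library 4 was the lowest of RA at the chromosome 1A region and in the middle of its group at the chromosome 3 region. At chr8:4787675-4791027 (3353 bp) the Area X libraries had 25.7, 12.5, 8.98 and 13.5 CPM, against 71.8, 95.2, 65.5 and 34.8 CPM in RA, a 4.53-fold difference. Area X library 1 was the nearest to RA and RA library 4 the nearest to Area X, without overlap.

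The other 7 regions toward RA were between 3.96-fold and 4.24-fold lower in Area X. They were chr2:44492340-44493740, chr9:21526956-21528723, chr7:1884752-1886132, chr3:29451959-29453068, chr1:55750880-55751684, chr7:39161717-39163906 and chr15:13882779-13883557. Their Area X means ran from 5.92 CPM at the chromosome 1 region to 13.8 CPM at the chromosome 9 region, and their RA means from 24.8 to 54.8 CPM at the same regions. Over all 12, RA library 4 was the lowest RA library at 9, with 2 to 13 reads over the 12 regions, and Area X libraries 3 and 4 were both below libraries 1 and 2 at 7. With any 1 singing library left out the folds ranged from 3.1 to 9.86, all toward RA. The 12 were called without RA library 4, with folds of 3.81 to 8.62, and all 12 without RA libraries 2 and 4. With any library but Area X 3, Area X 4 or RA 3 left out, the whole set was called.

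**Figure D3:**
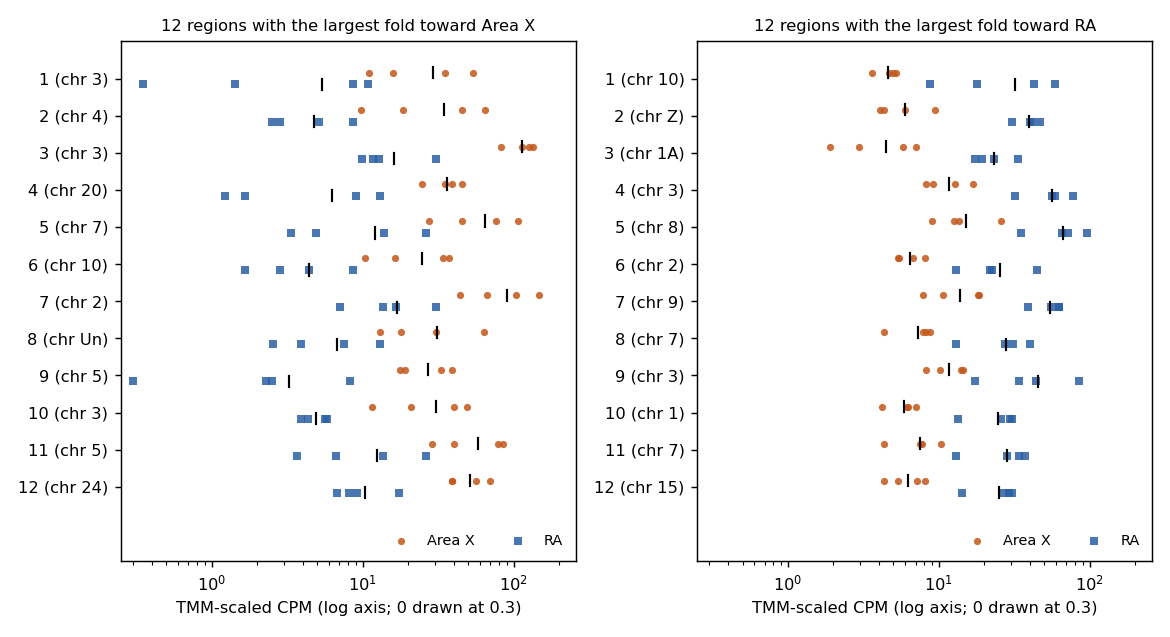
TMM-scaled CPM of each singing library (log axis; Area X orange circles, RA blue squares; 0 drawn at 0.3) at the 12 regions with the largest folds toward Area X (left) and toward RA (right), in order of fold from the top. Black ticks are group means and no error bar is drawn; the groups do not overlap at any of the 24 regions because non-overlap was a condition of choice.

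The strongest called regions, those with the highest mean CPM, were broad. Their CPM was not divided by width, so the ranking itself favours broad regions. Toward Area X they were led by chr18:1502940-1533790, a region of 30851 bp with 1865.1, 1597.7, 1637.2 and 1773.4 CPM in Area X, against 832.3, 870.7, 779.8 and 1269.1 CPM in RA. The value of RA library 4 was well above the other RA libraries and still below every Area X library. The fold was 1.84 (log2 0.88 ± 0.24 SE, adjusted p = 0.0263 by edgeR). The call was lost with total-read scaling (adjusted p = 0.0642), without RA library 1 (0.105) and without RA library 2 (0.079), and under signal-dependent scaling, in which a smooth curve of log ratio on mean signal sets each library's scale, the log2 value was -0.16 (adjusted p = 0.595).

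The next region, chr2:26850722-26874974 (24253 bp), had 1483.8, 1504.2, 2321.4 and 1913.8 CPM in Area X, against 365.9, 629.4, 439.7 and 1060.5 CPM in RA. The fold was 2.92 (log2 1.55 ± 0.37 SE, adjusted p = 0.0215 by edgeR) and 3.78 without RA library 4, and signal-dependent scaling brought the log2 value to 0.58 (0.0333). The call was lost without RA library 1 (adjusted p = 0.0607) and without RA library 2 (0.0511). The third, chr5:37983307-38006140 (22834 bp), had 994.9, 1215.9, 1893.6 and 1647.1 CPM in Area X, against 291.8, 644.5, 432 and 960.5 CPM in RA, a 2.49-fold difference (adjusted p = 0.0316 by edgeR). Both regions had the same order of libraries within each nucleus, and RA library 4 came close under the lowest Area X library at the chromosome 5 region. The chromosome 5 call was lost without RA library 1 (adjusted p = 0.113), without RA library 2 (0.0723) and under signal-dependent scaling (0.139).

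Toward RA, the strongest was chr4A:19956393-19986302 (29910 bp), with 546.8, 504.8, 358.7 and 472.4 CPM in Area X, against 1208, 1014.3, 1199.6 and 730.2 CPM in RA. Groups did not overlap, and the fold was 2.21 (log2 -1.14 ± 0.25 SE, adjusted p = 0.0206 by edgeR). At chr18:1062812-1079458 (16647 bp) the Area X libraries were tight, with 265.2, 279.4, 238.9 and 266.5 CPM, against 543.5, 506.7, 524.8 and 230.4 CPM in RA. Libraries 1 to 3 of RA lay well above Area X, whereas RA library 4 lay below every Area X library. The fold was 1.73 with RA library 4 (adjusted p = 0.0436 by edgeR) and 2 without it (0.0129), and of the 8 fits that left out 1 library, that was the only one to keep the call. It was also lost in the fit of the singing groups alone (0.0514).

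At chr11:5548714-5561728 (13015 bp) the Area X libraries had 277.3, 273.3, 212.3 and 246.9 CPM, against 548.9, 434.9, 461.2 and 295.6 CPM in RA. Its lowest RA value, in library 4, was above every Area X library. The fold was 1.73 (adjusted p = 0.0376 by edgeR), 1.91 without RA library 4, and the call was lost without Area X library 2 (0.0631), RA library 1 (0.0736) or RA library 2 (0.0528). Under signal-dependent scaling these 3 regions lay farther toward RA, with log2 values of -2.14 at chr4A:19956393-19986302, -1.69 at chr18:1062812-1079458 and -1.66 at chr11:5548714-5561728 (adjusted p = 0.0129, 0.0134 and 0.0134 by edgeR). Chromosome 18 carries one of the strongest regions in each direction.

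Broad regions of similar level were found as well. The strongest uncalled region whose 95% interval lay within 2-fold was chr14:10761033-10790289 (29257 bp), with 888.6, 927.7, 1157.2 and 1259.7 CPM in Area X, against 768.6, 864, 1080.2 and 943.2 CPM in RA. Its log2 fold change was 0.21, with an interval of -0.24 to 0.66. The next, chr9:17437838-17450926 (13089 bp), had means of 813.2 ± 50.9 CPM in Area X and 691.9 ± 100 CPM in RA (SD, n = 4 each), a log2 fold change of 0.23 with an interval of -0.18 to 0.65. At chr28:2257303-2278466 (21164 bp) the means were 675.7 ± 46.7 CPM in Area X and 618.3 ± 87.4 CPM in RA, with a log2 fold change of 0.13 and an interval of -0.3 to 0.55. The libraries of both nuclei overlapped at all 3 regions. Their level relative to other regions depends on the scaling: where scaling was allowed to vary with signal, the log2 values were -0.86, -0.76 and -0.88, and all 3 were called lower in Area X (adjusted p = 0.0222, 0.0497 and 0.0302 by edgeR).

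A small share of the calls lay in runs of neighbouring calls, and shorter groups of neighbouring calls were not counted. A run was defined as 5 or more consecutive regions called the same way with no gap over 10000 bp, which gave 17 runs toward Area X and 19 toward RA. The Area X runs held 96 regions, 2.58% of the calls in that direction, on 13 chromosomes, with a median length of 32223 bp. The RA runs held 117 regions, 4.02% of the calls, on 15 chromosomes, with a median length of 21472 bp. The CPM summed over a run separated the nuclei without overlap at 15 of 17 Area X runs and 18 of 19 RA runs. Since calls define a run, its sums are a description. The fold of a run is the ratio of its mean sums, unlike the fitted folds of single regions. The run count depended on scaling and on single libraries: with total-read scaling there were 4 runs toward Area X and 49 toward RA. Without Area X library 1 there were 32 and 14, without RA library 4 30 and 31, without Area X library 2 3 and 3, without RA library 1 0 and 5, without RA library 2 0 and 6, and none in either direction without Area X library 3, Area X library 4 or RA library 3.

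The longest run by number of regions was chrZ:14099524-14144416, with 13 regions over 44893 bp, all lower in Area X. Its summed signal was 197.6, 200.5, 159.5 and 133.9 CPM in Area X libraries 1 to 4, against 805.7, 663.7, 860.3 and 617.2 CPM in RA. The lowest RA library was far above the highest Area X library. Means were 172.9 ± 32 CPM in Area X and 736.7 ± 115 CPM in RA (SD, n = 4 each), 4.26-fold toward RA, and 4.49-fold without RA library 4. Its 13 regions had folds of 2.82 to 6.75, the highest being chrZ:14136487-14137869. The widest, chrZ:14099524-14105208, averaged 24.9 CPM in Area X and 119.8 CPM in RA. The 2 regions within 50000 bp of the run also leaned toward RA, and neither was called.

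The run chr10:16279441-16313186 held 9 regions over 33746 bp and had the lowest Area X signal of the 6 longest. Its sums were 91.4, 129.7, 75.1 and 64.2 CPM in Area X, against 486.7, 439.9, 537.8 and 295.6 CPM in RA. Every RA library was above every Area X library by a wide margin. Means were 90.1 ± 28.7 CPM in Area X and 440 ± 104.3 CPM in RA (SD, n = 4 each), 4.88-fold toward RA, and 5.42-fold without RA library 4. The median region had 2.57 CPM per kb in Area X and 17.9 CPM per kb in RA. Folds ran from 3 at chr10:16279441-16284528, at the near edge, to 9.39 at chr10:16308103-16308422, a 320 bp region with 0.614 CPM in Area X and 6.63 CPM in RA that had the largest fold of any call toward RA. All 13 regions within 50000 bp of the run leaned toward RA, with log2 values of -2.78 to -0.47. Of these, 7 were called, against 8.09% of all tested regions. The 7 include the 5 regions of another run toward RA, chr10:16255984-16272559.

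The run chr13:15871653-15942162 was the longest in bases, with 10 regions over 70510 bp. It summed to 545.6, 500.4, 382.9 and 401.3 CPM in Area X, against 1238, 1099.4, 1221.7 and 738.9 CPM in RA. The lowest RA value, in library 4, was above every Area X library. Means were 457.5 ± 78.2 CPM in Area X and 1074.5 ± 232.1 CPM in RA (SD, n = 4 each), 2.35-fold toward RA, and 2.59-fold without RA library 4. At its centre, chr13:15903457-15908685 had the highest signal per kb in both nuclei, with 24.2 CPM per kb in Area X and 37.2 in RA, and the lowest fold, 1.55. The other 9 regions had folds of 2.53 to 3.14. Of the 13 regions within 50000 bp, 13 leaned toward RA and 9 were called, against 8.09% of all tested regions.

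Toward Area X, the run chr17:11049999-11097760 held 7 regions over 47762 bp. It summed to 649.6, 615.8, 897 and 758.9 CPM in Area X, against 169.8, 291.3, 253.6 and 456.4 CPM in RA. The highest RA value, in library 4, was below every Area X library. Means were 730.3 ± 126.8 CPM in Area X and 292.8 ± 120.3 CPM in RA (SD, n = 4 each), 2.49-fold higher in Area X, and 3.07-fold without RA library 4. Its strongest region, chr17:11052553-11057257, averaged 262.6 CPM in Area X and 88.6 CPM in RA, a 3.25-fold difference. All 13 regions within 50000 bp leaned toward Area X, and 4 were called, against 10.4% of all tested regions.

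The run chr28:1751776-1795577 held 7 regions over 43802 bp and had the most signal of the 6. It summed to 1217, 1150.2, 1662.6 and 1542.7 CPM in Area X, against 401.3, 553.5, 495 and 838.8 CPM in RA. Its fold was 2.43, and 2.88 without RA library 4. Signal per kb was highest at the second region and declined toward the far end in both nuclei, while the fold was largest at its far end, with 4.12 at chr28:1794418-1795577 (30.9 CPM in Area X and 7.69 CPM in RA). Flanking regions were mixed: 7 of 9 leaned toward Area X and 1 was called, against 10.4% of all tested regions.

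The run chr4A:19066542-19095379 was the shortest of the 6 named runs, with 7 regions over 28838 bp. It summed to 412.9, 366.8, 582.4 and 546.7 CPM in Area X, against 109.3, 226.2, 165.7 and 221.7 CPM in RA, a 2.64-fold difference and 2.86-fold without RA library 4. Signal per kb was nearly level along it, at a median of 45 CPM in Area X and 16.4 CPM in RA. The fold was highest, 4.12, at chr4A:19075075-19075850. The strongest region called toward RA, chr4A:19956393-19986302, lies on the same chromosome.

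**Figure D4:**
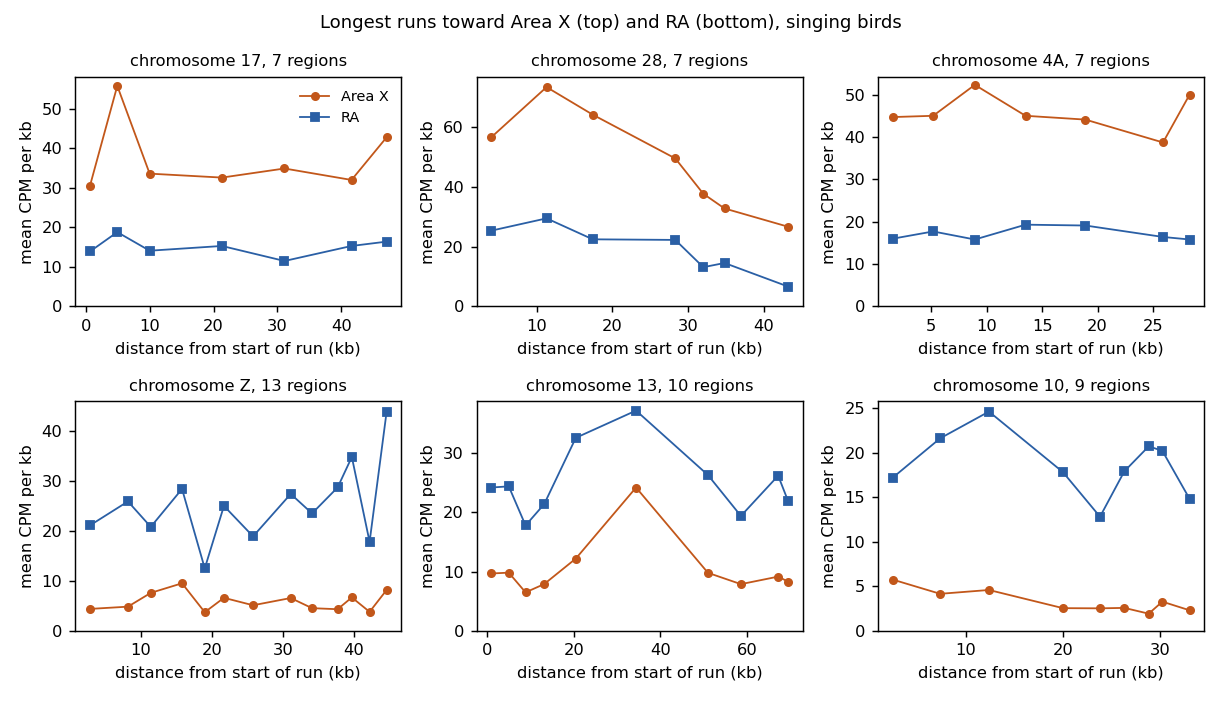
Mean signal per kilobase over 4 singing libraries (Area X orange circles, RA blue squares) at each region of the 3 longest runs toward Area X (top) and toward RA (bottom), against the distance of the region's centre from the start of the run in kb; lines join neighbouring regions and no error bar is drawn. The chromosome Z and 10 runs stay under 10 CPM per kb in Area X, and the run on chromosome 28 declines toward its far end in both nuclei.

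A few regions had no signal in RA. In singing birds 5 regions had 0 reads in all 4 RA libraries and none had 0 in all 4 Area X libraries; these 5 were picked after their values were seen. The Area X libraries hold 26.2 M reads in regions and the RA libraries 9.19 M, so a count of 0 is easier to reach in RA. At chr4:61982736-61983103 (368 bp) Area X libraries 1 to 4 had 2, 16, 41 and 61 reads. A count of 0 over the RA group allows a limit of 3 reads. Against that limit, the pooled Area X reads were 17.9-fold higher after scaling to depth multiplied by the TMM factors. This figure leaves out the spread between libraries, and is no lower bound for each library: Area X library 1 had only 2 reads. At chr8_random:3802888-3803160 (273 bp), on sequence not placed within chromosome 8, Area X libraries had 15, 18, 23 and 54 reads, a pooled figure of 16.4-fold. At chr8:25317794-25318026 and chrUn:36415085-36415336 the pooled figures were 11.5-fold and 9.86-fold, on 77 and 66 Area X reads. Those regions were called, and chr7:27695607-27695820 with 31 Area X reads was not (adjusted p = 0.0725 by edgeR). None of the 5 was at 0 in silent birds. There the RA libraries together had 19 to 22 reads and the Area X libraries 73 to 120.

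These belong to a wider group of short, weak regions. The 151 regions over 8-fold toward Area X had a median width of 329 bp and a median mean of 3.55 CPM, less than the 4.35 CPM of 1 read in RA library 4, against 764 bp and 13.8 CPM for all tested regions. Of the 151, 124 were at most 500 bp wide, 48 lay on unplaced or random sequence, and 5 reached the median CPM. The 7 regions over 8-fold toward RA had a median width of 210 bp and a median mean of 3.01 CPM. All 151 and all 7 had the same direction in silent birds, at median folds of 3.8 and 4.75.

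Called regions differed in width and signal from the rest. Those called toward Area X had a median width of 1452 bp and those called toward RA of 1077 bp, against 764 bp overall. Of the 1549 regions wider than 4000 bp, 33.6% were called toward Area X and 12.5% toward RA, and of the 11028 regions of at most 500 bp, 4.84% and 5.24%. Wide regions hold more reads each, and a difference of a given size is easier to call with more reads. The part of read number in these rates was not tested. Regions wider than 4000 bp held 25.6, 27.6, 31.9 and 31.4% of the reads in Area X libraries 1 to 4, against 20.7, 24.1, 24.5 and 27.8% in RA libraries 1 to 4. The groups overlapped through RA library 4 (29.1 ± 3.04% in Area X and 24.3 ± 2.89% in RA; exact two-sided permutation p = 0.0857, 0.143 adjusted over 5 width classes). Regions of at most 500 bp held 5.74 ± 0.585% in Area X and 7.35 ± 0.907% in RA (exact permutation p = 0.0571, adjusted 0.143). The smallest p that 4 against 4 libraries allow is 0.0286. Which direction had more calls among wide regions depended on scaling. Their rates were 15.2% toward Area X and 19.8% toward RA with total-read scaling, and 5.94% and 24% with signal-dependent scaling. Regions of at most 500 bp were at 2.43% and 11.4%, and at 6.44% and 2.13%. The split over all 35954 regions moved too, to 1555 calls toward Area X and 5579 toward RA, and to 2574 and 2768. With total-read scaling, wide regions thus still had more calls than narrow ones in both directions.

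Regions were also split into 5 classes of equal size by their signal per kb in the silent libraries. In the top class 18.2% were called toward Area X and 1.1% toward RA, and in the bottom class 6.84% and 12.2%. The top class held 53.1, 49.9, 44.7 and 44.5% of the reads in Area X, against 43.1, 41.5, 35.1 and 46.6% in RA. Area X libraries 3 and 4, the ones farthest from RA in position, were the lowest of Area X in this share, and RA library 4 was above both (exact permutation p = 0.114, adjusted 0.143). More calls toward Area X than toward RA in the top class were also made with total-read scaling (6.84% and 2.7%) and signal-dependent scaling (7.08% and 2.88%). In the bottom class the order turned under signal-dependent scaling, to 8.15% toward Area X and 7.66% toward RA. Regions within 1 kb of another were called toward Area X at 15.3% and toward RA at 9.07%, and those more than 100 kb from any other at 6.37% and 5.68%. All tested regions were at 10.4% and 8.09%. The read shares overlapped in both classes. They were 25.5 ± 1.43% in Area X and 23.9 ± 1.26% in RA within 1 kb (exact permutation p = 0.171, adjusted 0.523). Past 100 kb they were 1.06 ± 0.169% and 1.21 ± 0.178% (exact permutation p = 0.257, adjusted 0.523).

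Chromosome 11 was among those that leaned toward RA. Of its 737 regions, 37 were called toward Area X (5.02%) and 112 toward RA (15.2%). It held 2.43, 2.3, 2.03 and 2.09% of the reads in Area X, against 3.13, 2.79, 2.93 and 2.45% in RA. All 4 Area X libraries lay below all 4 RA libraries, RA library 4 only just (2.21 ± 0.183% in Area X and 2.82 ± 0.286% in RA; exact permutation p = 0.0286, the smallest this design allows, and 0.203 adjusted over 32 chromosome classes). The lean toward RA was there with total-read scaling (1.76% of its regions called toward Area X and 27.4% toward RA) and with signal-dependent scaling (2.58% and 15.7%). Total-read scaling moved the whole set of 35954 regions toward RA, to 1555 calls toward Area X and 5579 toward RA. A lean toward RA under that scaling is thus not particular to this chromosome. With signal-dependent scaling the whole set had 2574 and 2768. Chromosomes 17, 19 and 24 also had lower shares in Area X without overlap, at 3.03% in Area X and 3.38% in RA, 2.03% and 2.39%, and 1.81% and 2.08%, each with the same p and adjusted p. Chromosome 1 went the other way, with 12.8% of 2612 regions called toward Area X and 4.98% toward RA, and read shares of 7.02 ± 0.438% in Area X and 6.2 ± 0.371% in RA that overlapped (exact permutation p = 0.0571). With total-read scaling its calls were 5.47% and 10.2%, but the split over all regions turned toward RA as well under that scaling. With signal-dependent scaling they were 9.04% and 4.21%. Chromosome Z had calls in near balance, 7.18% toward Area X and 7.5% toward RA, although it holds the longest RA run. On chromosome 25, with 112 regions, 4.46% were called toward Area X and 17% toward RA, and its read shares of 0.385 ± 0.0483% in Area X and 0.48 ± 0.0433% in RA overlapped (exact permutation p = 0.0571). No chromosome passed the adjusted threshold.

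The same nuclei were set against each other in silent birds, 3 libraries each, which share no library with the singing comparison. Of 35954 regions, 7135 were called in silent birds (19.8%), 3721 toward Area X (10.3%) and 3414 toward RA (9.5%). Among the singing calls, 2022 of 3728 toward Area X (54.2%) and 1856 of 2907 toward RA (63.8%) were called in silent birds too, and none in the opposite direction. The sign was shared at 3724 of 3728 and at 2907 of 2907, against 88.1% of all regions. Median folds of the singing calls in silent birds were 2.58 toward Area X and 2.61 toward RA.

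Both contrasts come from one fit with a shared spread, so each behaviour was also fitted by itself. Over 34888 regions present in both fits, 6047 were called in singing birds, and 6046 of these had the same sign in silent birds. An unadjusted p below 0.05 with the same sign was reached in silent birds by 5084 of 6047 (84.1%), against 42.1% of all regions. Calls toward Area X had a median fold of 2.97 in singing and 2.74 in silent birds, and calls toward RA of 2.68 and 2.66. Across regions, which share libraries and are not independent, log2 fold changes of the separate fits had a Pearson r of 0.891 and a Spearman rho of 0.911. The silent libraries alone gave 0 calls in edgeR, with 15180 regions at an unadjusted p below 0.05.

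**Figure D5:**
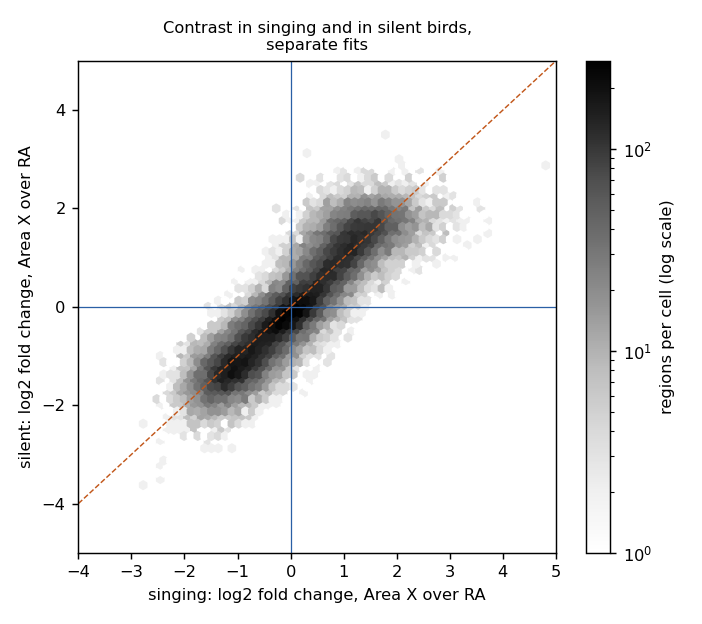
Log2 fold change, Area X over RA, in singing birds (horizontal) and in silent birds (vertical) from separate fits, over 34888 regions; grey shade is the number of regions per cell on a log scale, solid lines mark 0 and the dashed line equality. Most regions lie in the 2 quadrants of equal sign, and 3 regions fall outside the axes.

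The named regions held to their direction in silent birds, all 24 of them, though their sizes varied. In the fit of all 14 libraries, folds in silent birds were 2.75 to 5.48 for the 12 toward Area X, of which 5 were called. They were 3.18 to 15.2 for the 12 toward RA, all called. The 6 silent libraries fitted alone gave 0 calls at any region. At chrZ:14136487-14137869 silent birds had 5.27, 3.17 and 1.55 CPM in Area X, against 40.8, 28.9 and 78.8 CPM in RA, a 15.2-fold difference (adjusted p = 0.00315 by edgeR) next to 6.75-fold in singing birds. At chr3:39461302-39462622 they had 82.8, 173 and 136.2 CPM in Area X, against 13.9, 69.8 and 7.83 CPM in RA, a 4.33-fold difference next to 8.53-fold. RA silent library 2 was the RA library nearest to Area X at both.

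The runs behaved alike. The chrZ:14099524-14144416 run was 6.79-fold toward RA in silent birds, the chr10:16279441-16313186 run 8.77-fold and the chr13:15871653-15942162 run 2.52-fold. Toward Area X, the chr17:11049999-11097760 run was 3.07-fold higher, the chr28:1751776-1795577 run 2.51-fold and the chr4A:19066542-19095379 run 2.74-fold. All 17 and all 19 runs had the same direction in silent birds, at median folds of 2.9 and 2.8 next to 2.74 and 2.31 in singing birds.

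No region was called for a difference of the contrast between singing and silent birds. The test of that difference called 0 regions with edgeR and 0 with DESeq2, and 211 of 35954 regions had an unadjusted p below 0.05 in edgeR. That is far under the share of 0.05 that a calibrated test gives on average where no region differs. The test may thus be too strict here, so 0 calls says little, and the reason was not tested. All 24 named regions had an interval for the difference that included 0, but the intervals were wide. At chrZ:14136487-14137869 the log2 difference, singing minus silent, was 1.17 with an interval of -0.1 to 2.45, and at chr4:8418829-8419933 it was 1.43 with an interval of -0.37 to 3.23. At the broad region chr18:1502940-1533790 it was -0.15, with an interval of -0.9 to 0.6. These intervals leave room for changes past 2-fold at the small regions and not at chr18:1502940-1533790.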

How the data were processed

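The authors deposited raw read counts per region for 14 H3K27ac libraries. The submitters' processing notes list HTSeq 0.6.1, MACS2 2.1, SAMtools 1.1 and bedtools without their roles; aligner and genome build are not given. Each column name carries a nucleus, a sign word and a number; "minus" was taken to mean silent and "plus" singing, and the direction of the behaviour comparison rests on this. Counts were not corrected for input. In R 4.3.3, edgeR 4.0.16 fitted the deposited counts of all 14 libraries with 4 group means (filterByExpr, TMM, glmQLFit robust, glmQLFTest) and Benjamini-Hochberg adjustment, threshold 0.05; an SE is the log2 fold change's size divided by the root of its F value. This test was tested on simulated data, in which libraries were independent, so shared pools of birds were not covered. DESeq2 1.42.0 was an alternative. Shares of reads were compared by exact permutation (SciPy 1.17.1). Named were, per direction, the 12 largest folds under the conditions in the text, the 3 called regions of highest mean CPM and the 3 longest runs, and the 3 strongest uncalled regions with an interval within 2-fold. Regions, lists and rules were chosen with earlier results of these data known. Gene lists were not used, for lack of an annotation of the files' build. Intervals from read counts cover counting error only.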

Additional observations from a re-analysis of the deposited data

Results flagged for a closer look

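Among 96 groups of 4 libraries, 4 held a value whose gap to its nearest neighbour exceeded Dixon's 95% limit; chance gives about 4.8. RA library 4 was high at chr3:39461302-39462622, with 30.4 CPM next to 9.93, 11.7 and 12.9 CPM in the other RA libraries (gap 0.855 of the range). The same library was low at chr18:1062812-1079458, with 230.4 CPM next to 506.7, 524.8 and 543.5 CPM (0.882). Both values point toward Area X, and the part of depth in them was not tested. The first rests on 7 reads, with an exact 95% Poisson interval of 12.2 to 62.7 CPM that covers 12.9 CPM. The second rests on 53 reads, with an interval of 172.7 to 301.6 CPM that lies below the other RA libraries. Both intervals cover counting error only. At chr9:17437838-17450926, Area X library 4 was low, with 737.2 CPM next to 832.2, 841.3 and 842 CPM (0.906). In the share of reads on chromosome 17, RA library 3 was high, with 3.62% next to 3.26, 3.31 and 3.32% (0.833), which is also the direction of the difference from Area X.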

How the results depend on the processing

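Main counts were 6635 calls, 3728 toward Area X and 2907 toward RA, with 17 and 19 runs. Without 1 singing library they ranged from 0 to 8780, 0 to 4764, 0 to 4096, 0 to 32 and 0 to 31. Without RA singing libraries 2 and 4 there were 6877 calls, 2843 toward Area X and 4034 toward RA. Without RA silent library 2 as well there were 10864, 5482 toward Area X and 5382 toward RA. Total-read scaling gave 1555 and 5579 calls by direction and 4 and 49 runs. Regions at or above the median CPM alone gave 4028 calls, 1503 of them toward Area X. DESeq2 gave 9701 calls, 4714 of them toward RA. An adjusted p below 0.01 left 0. A gap of 5000 bp gave 10 and 12 runs. With DESeq2 size factors the silent calls were 4080 in place of 7135, an alternative chosen after seeing the data. With the library number as a replicate block in the singing libraries there were 10865 calls, 7159 toward Area X. Same-numbered Area X and RA libraries had correlations of their deviations from the group mean of 0.658, 0.0262, 0.0896 and 0.134. Only number 1 correlated best with its own number. Area X libraries 2, 3 and 4 correlated best with RA libraries 1 (0.322), 4 (0.298) and 3 (0.289). DESeq2 size factors (5675), signal-dependent scaling (5342), no filter (6632), singing groups alone (6058) and non-robust dispersions (6764) stayed within 1.5 times. The split turned with DESeq2 size factors, 2815 toward Area X and 2860 toward RA, and with signal-dependent scaling, 2574 and 2768. Signal-dependent scaling turned 4 named values, to log2 -0.16 at chr18:1502940-1533790, -0.86 at chr14:10761033-10790289, -0.76 at chr9:17437838-17450926 and -0.88 at chr28:2257303-2278466; the cause was not tested. The share differences of the widest, narrowest, top-signal and bottom-signal classes and of chromosomes 1, 11, 17, 19 and 24 kept their sign without any 1 library; small ones did not, such as the fourth signal class (-0.118 points, 0.181 without Area X library 1) and chromosomes 10, 12 and 14. RA reads limit the comparison: RA library 4 has 0.203 M (1e6) reads in regions.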
